A study of Rattus norvegicus with 4 samples.

Results

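The 69 genes described here encode mitochondrial ribosomal proteins, the protein part of the ribosome that works inside mitochondria. They were taken from the table of gene counts by symbol: Mrpl or Mrps followed by a number, 1 row per Ensembl gene identifier, with a summed count of at least 40 over the 4 libraries. The rule used no difference between treatments. Of 71 matching symbols among 21648 gene identifiers, 69 met the count minimum, 42 named as large subunit proteins (Mrpl) and 27 as small subunit proteins (Mrps). Below the minimum were Mrpl1, with 2 and 0 counts in the DMSO libraries and 4 and 2 in the topotecan libraries, and Mrps21l, which was listed at 0 in every library. The members nearest above it were Mrpl36, with 273 counts in all, and Mrps24, with 1121. All 69 members also passed the filter on low counts that preceded the test. Of the other proteins of this ribosome, mrpl9, mrpl11 and mrpl24 are written in lower case in the table, fall outside the rule and are given separately.

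The cells were cortical neurons of rat embryos of day 18 from a commercial supplier (BrainBits), plated in STEMdiff Neural Induction Medium and moved after 24 hours to BrainPhys Neuronal Medium with SM1 supplement. They received either the solvent DMSO (2 libraries) or topotecan (2 libraries), an inhibitor of topoisomerase I, which relieves the twist that transcription puts into DNA, and the submitters used topotecan to lower the expression of long genes. No genetic change is named in the labels for either group, and dose and exposure time were not given in the sources used here. Nothing in the labels says whether libraries came from separate cultures, so the p-values measure the spread between these libraries, which may be technical.

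Mitochondria keep a small genome that encodes core subunits of the respiratory chain and of ATP synthase, and the mitochondrial ribosome translates only these messages. Its rRNAs come from mitochondrial DNA, while all of its proteins are encoded in the nucleus, made in the cytosol and imported. The large subunit joins amino acids and passes the new chain out through a tunnel next to the inner membrane, and the small subunit binds the mRNA and reads its codons. Some of the proteins descend from bacterial ribosomal proteins and others have no bacterial counterpart. Neurons depend on respiration for ion pumping and synaptic transmission, and inherited defects in several of these proteins cause combined deficiencies of the respiratory chain.

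Each library held 22957786 to 31181382 counts. Neuronal markers summed to 40100 and 37800 counts per 1e6 in DMSO and 42700 and 44300 in topotecan, so the labelled cell type was present. The cultures also held glia: 13 astrocyte markers summed to 6420 and 6580 counts per 1e6 in DMSO and 529 and 574 in topotecan, and 12 oligodendrocyte lineage markers to 4090 and 4440 against 134 and 122, and all 25 were lower in topotecan by the test below. Progenitor markers summed to 374 and 353 in DMSO and 15.6 and 15 in topotecan, cell cycle genes to 339 and 315 against 179 and 180, glutamatergic markers to 658 and 676 against 1140 and 1160, and interneuron markers to 413 and 379 against 573 and 529. The neuronal, glutamatergic and interneuron lists were mixed by the test below. Of 26 neuronal markers 8 were higher, 4 (Syt1, Thy1, Rbfox3 and Map2) were lower and 14 did not pass. Of the glutamatergic markers 5 were higher, with Neurod6 averaging 353.3 in DMSO and 829.4 in topotecan, and 1, Camk2a, was lower. Of the interneuron markers 4 were higher, with Sst averaging 93.2 against 325.9, and 2, Gad1 and Gad2, were lower. Among these lists only Sox10 and Hes5 were listed at 0 in both topotecan libraries. All 7 microglial markers with a row had under 20 counts in every library, and 5 endothelial markers summed to 1.61 and 1.57 counts per 1e6 in DMSO and 0.385 and 0.432 in topotecan. In such bulk RNA, fewer cells of a type and less RNA per cell cannot be told apart. The part of this shift in cell type markers in the results that follow was not tested, except that the members are also given after scaling to neuronal markers.

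The comparison of topotecan with DMSO asked whether genes of the mitochondrial ribosome changed, and whether its subunits differed. Some mitochondrial ribosomal protein genes were higher in topotecan, by small factors, and most did not pass the test. Of the 69 members 29 (42.0%) rose, 1 (1.45%) fell and 39 did not pass the test, whereas 16.2% of all 12162 genes tested were called higher and 23.5% lower (edgeR's quasi-likelihood F-test, with p-values adjusted over all genes by Benjamini-Hochberg and a threshold of 0.05). The median log2 fold change was 0.224 over the members and -0.00963 over all genes tested. The rises ranged from 1.17-fold to 1.52-fold, 7 of the 29 were under 1.2-fold, and only Mrps10 reached 1.5-fold. In 54 of the 69 members both topotecan libraries lay above both DMSO libraries, as in 33.7% of all genes tested, and in 3 members both lay below, as in 36.9% of all genes. Those 54 were the 29 members that rose and 25 that did not pass the test. A log2 fold change above 0 was found in 62 members and one below 0 in 7.

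**Figure D1:**
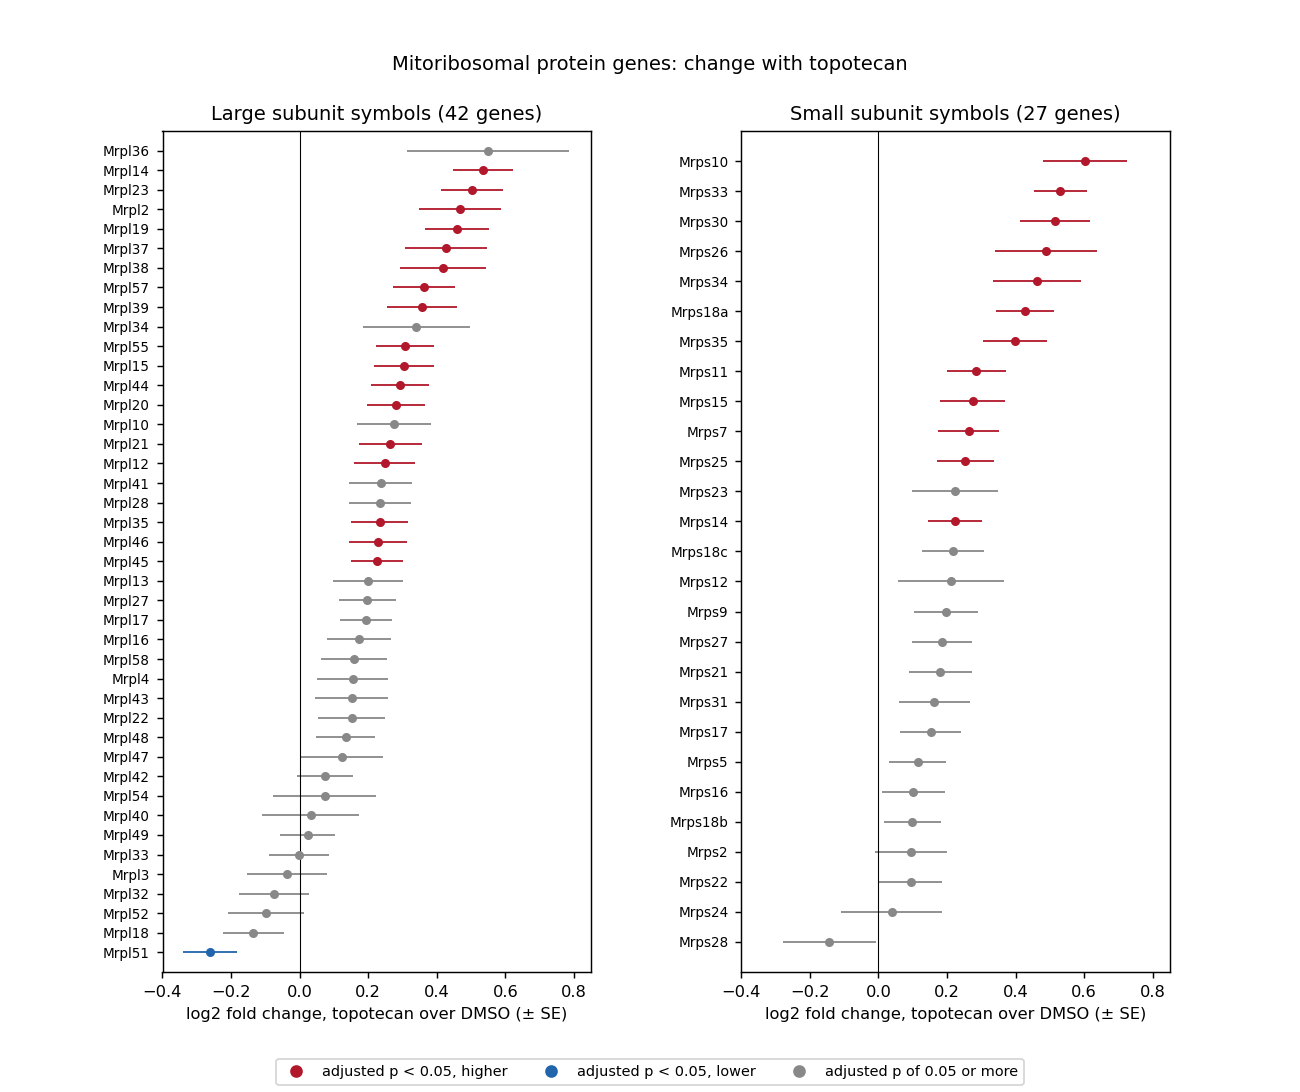
Log2 fold change of topotecan over DMSO for each of the 42 large and 27 small subunit genes, ordered within each panel, with bars of 1 standard error from the edgeR fit on 2 libraries per group. Red points passed the test as higher (17 large, 12 small), the blue point is Mrpl51, which passed as lower, and grey points did not pass.

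The counts depended on single libraries. Without topotecan replicate 1, 12 members were called higher and 0 lower, beside 9.72% and 18.8% of all genes, and without topotecan replicate 2 they were 14 and 0, beside 10% and 18.8%. Without DMSO replicate 1 they were 43 and 1, beside 20.1% and 23.7%, with 26 rather than 17 large subunit genes called higher, and without DMSO replicate 2 they were 22 and 1, beside 15.7% and 22.1%. Mrpl51 kept a value below 0 in all 4 fits. In each of these fits the library left alone in its group is assumed to vary as those of the other group do. The 10 members called higher whichever library was left out were Mrpl2, Mrpl14, Mrpl19, Mrpl23, Mrpl37, Mrps10, Mrps18a, Mrps30, Mrps33 and Mrps34. The other 19 lost the call without at least 1 library.

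Members also differed between the DMSO libraries. In 56 of the 69, DMSO replicate 1 was higher than DMSO replicate 2, with a median log2 ratio of 0.0829 between these libraries against 0.00075 over all genes tested. In 15 members the DMSO libraries differed by more than 1.2-fold, and in none did the topotecan libraries. For 19 members the gap between the DMSO libraries was larger than the difference between treatments. Mrpl34, a short protein of the large subunit, shows this: it stood at 55.8 and 35.9 CPM (counts per 1e6 library counts, after TMM scaling) in DMSO and 56.3 and 60.0 CPM in topotecan, with a log2 fold change of 0.34 that did not pass (SE 0.16, adjusted p = 0.101).

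In the large subunit Mrpl36 had the largest log2 fold change, 0.55, but did not pass (SE 0.24, adjusted p = 0.0807), at 2.14 and 1.97 CPM in DMSO and 2.87 and 3.17 CPM in topotecan. Mrpl14 rose most among members that passed. Its protein lies on the face that meets the small subunit, where the assembly factor MALSU1 binds. Mrpl14 stood at 106 and 96.4 CPM in DMSO and at 151 and 143 CPM in topotecan. Both topotecan libraries were thus well above both DMSO libraries, and the log2 fold change was 0.53 (SE 0.09, adjusted p = 0.000284). Mrpl23, a protein at the mouth of the peptide exit tunnel, went from 61.4 and 58.8 CPM to 84.5 and 85.7 CPM, a log2 fold change of 0.50 (SE 0.09, adjusted p = 0.000646). Mrpl2, next to the site where peptide bonds form, stood at 44.6 and 35.2 CPM in DMSO and at 55.7 and 54.8 CPM in topotecan, a log2 fold change of 0.47 (SE 0.12, adjusted p = 0.00667). Its DMSO libraries lay further apart than its topotecan libraries, without overlap between the groups. Mrpl19, homologous to a bacterial protein at the subunit interface, went from 73.9 and 65.8 CPM to 97.1 and 94.9 CPM (log2 fold change 0.46). Mrpl37, which has no bacterial counterpart, rose with a log2 fold change of 0.43 from 54.3 and 41.7 CPM to 64.4 and 64.9 CPM. It overlaps Ssbp3 in the RefSeq annotation, a gene that was itself higher with a log2 fold change of 1.09, and since the counting is not stated to use strand, reads of the pair may be shared. Mrpl38, in the central protuberance, had 78.4 and 57.6 CPM in DMSO and 87.0 and 94.9 CPM in topotecan (log2 fold change 0.42, adjusted p = 0.0173). It lost the call without DMSO replicate 2 (adjusted p = 0.0639) and without topotecan replicate 2 (adjusted p = 0.0618).

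The 1 member that fell was Mrpl51, a large subunit protein with no bacterial counterpart. It stood at 269 and 291 CPM in DMSO and at 236 and 231 CPM in topotecan. The groups did not overlap, and the log2 fold change was -0.26 (SE 0.08, adjusted p = 0.0178). It missed the threshold without topotecan replicate 1 (adjusted p = 0.112) and without topotecan replicate 2 (adjusted p = 0.164).

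In the small subunit Mrps10, a protein of the head, had the largest rise of any member. It was at 22.6 and 19.5 CPM in DMSO and 31.3 and 32.6 CPM in topotecan, a log2 fold change of 0.60 (SE 0.12, adjusted p = 0.00139). Mrps33, which has no bacterial counterpart, went from 146 and 149 CPM to 216 and 211 CPM. Its replicates were close and its groups far apart, and its log2 fold change of 0.53 (SE 0.08) had the smallest adjusted p of the members, 0.000112. Mrps26, also specific to mitochondria, stood at 15.6 and 11.8 CPM in DMSO and 19.5 and 19.1 CPM in topotecan (log2 fold change 0.49, adjusted p = 0.0188). Its call was lost without DMSO replicate 2 (adjusted p = 0.0845) and without topotecan replicate 1 (adjusted p = 0.059). Mrps34, which stabilises the rRNA of the small subunit, stood at 91.4 and 64.9 CPM in DMSO and at 109 and 107 CPM in topotecan, a log2 fold change of 0.46 (SE 0.13, adjusted p = 0.0112). The DMSO libraries of Mrps34 differed by more than those of most members, and both still lay below the topotecan libraries.

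**Figure D2:**
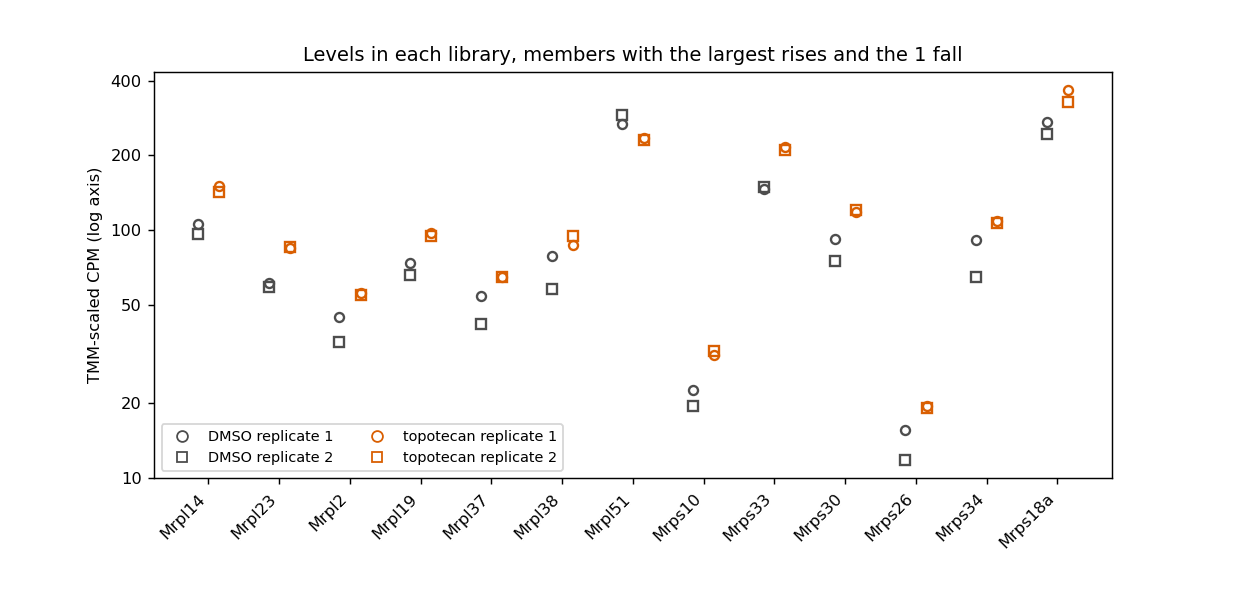
TMM-scaled CPM on a log axis in each of the 4 libraries for the 6 largest rises in each subunit and for Mrpl51, with circles for replicate 1 and squares for replicate 2. In the 12 genes that rose both topotecan libraries (orange) lie above both DMSO libraries (grey), and in Mrpl51 both lie below.

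Mrps30 and Mrps18a carry small subunit symbols, but the structures of the mammalian ribosome place both proteins in the large subunit. Mrps30 was at 91.9 and 75.2 CPM in DMSO and 119 and 120 CPM in topotecan (log2 fold change 0.52, SE 0.10, adjusted p = 0.0012). Mrps18a was at 273 and 245 CPM in DMSO and 367 and 330 CPM in topotecan (log2 fold change 0.43, SE 0.09, adjusted p = 0.00131). Mrps18a is 1 of 3 genes related to a single bacterial protein. Of the others, Mrps18b had 128 and 124 CPM in DMSO and 138 and 132 CPM in topotecan (log2 fold change 0.10, SE 0.08, adjusted p = 0.371), and Mrps18c had 76.1 and 71.6 CPM against 87.6 and 84.2 CPM (log2 fold change 0.22, SE 0.09, adjusted p = 0.073). Only Mrps18a passed the test, and a difference in response among the 3 was not tested.

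The promoters of 4 members that rose are shown because they hold the letters of motifs known from nuclear genes of mitochondrial proteins: NRF1, a regulator of such genes, and the ETS family, to which the regulator GABPA belongs. Each run is the 250 bases before the RefSeq start on the gene's own strand in GRCr8, with the NRF1 or ETS letters in capitals. They were chosen after values were seen, from members called higher whose window overlaps no other RefSeq gene.
Mrpl23 chr1:207116680-207116929 +: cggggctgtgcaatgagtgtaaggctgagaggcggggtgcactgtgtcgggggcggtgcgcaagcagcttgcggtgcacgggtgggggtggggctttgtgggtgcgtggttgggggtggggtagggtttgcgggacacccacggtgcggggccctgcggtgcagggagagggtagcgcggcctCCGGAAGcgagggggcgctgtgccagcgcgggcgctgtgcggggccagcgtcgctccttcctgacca
Mrpl44 chr9:88554800-88555049 +: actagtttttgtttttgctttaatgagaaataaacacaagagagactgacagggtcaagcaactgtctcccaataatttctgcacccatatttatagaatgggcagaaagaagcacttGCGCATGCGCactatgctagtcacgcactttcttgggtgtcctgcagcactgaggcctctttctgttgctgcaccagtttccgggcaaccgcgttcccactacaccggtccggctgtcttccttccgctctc
Mrpl45 chr10:82804789-82805038 +: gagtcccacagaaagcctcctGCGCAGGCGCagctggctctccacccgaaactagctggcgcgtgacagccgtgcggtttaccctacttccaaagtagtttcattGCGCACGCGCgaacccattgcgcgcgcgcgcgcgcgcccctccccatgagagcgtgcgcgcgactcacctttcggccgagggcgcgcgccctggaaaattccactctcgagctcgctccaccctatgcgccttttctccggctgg
Mrps18a chr9:22367381-22367630 -: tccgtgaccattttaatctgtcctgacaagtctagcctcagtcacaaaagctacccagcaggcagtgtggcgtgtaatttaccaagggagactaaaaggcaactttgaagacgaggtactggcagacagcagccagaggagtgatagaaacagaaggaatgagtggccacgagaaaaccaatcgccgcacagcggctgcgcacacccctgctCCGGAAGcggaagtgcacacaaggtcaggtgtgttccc

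The ETS letters CCGGAAG begin 67 bases before the start of Mrpl23 and 38 bases before that of Mrps18a, and Mrpl44 has NRF1 letters 132 bases before its start. Mrpl45 has 2 NRF1 matches on the other strand, 229 and 145 bases before its start. Over the 57 RefSeq windows found for 55 of the 69 members, searched on both strands over 250 bases, the NRF1 letters stood in 6 windows (10.5%), against 3.75% of all 33469 windows in the table and 8.43% of the windows of genes tested. The ETS letters stood in 12 (21.1%), against 7.27% and 14.2%, the SP1 letters GGGCGG in 25 (43.9%), against 30.5% and 56.1%, and the E-box CACGTG in 3 (5.26%), against 5.59% and 8.16%. The letters of YY1, a factor known to bind at many such starts, stood in 0 of the 57 windows, against 0.335% and 0.668%. With the 50 bases from the start on added, a choice made after seeing the data, the YY1 letters stood in 6 windows (10.5%), against 0.98% of all windows and 2.24% of those of genes tested. All 6 were on the gene's own strand, in Mrpl37, Mrpl46, Mrps10, Mrps18a, Mrps27 and Mrps30. Of the 57 member windows 23 were of members that rose, among them 5 of these 6, and Mrps27 did not pass. A link between these letters and the rise was not tested. ETS matches then stood in 19 windows (33.3%), against 8.75% of all windows and 16.7% of those of genes tested. NRF1 matches stood in 8 (14%), against 4.25% and 9.4%. A match is a description of letters and not a bound site. Within 250 bases, 3 of the 23 windows of members that rose held NRF1 letters (13.0%) and 3 held ETS letters (13.0%). Over all member windows these shares were 10.5% and 21.1%.

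Grouped by place in the ribosome, rises occurred in most parts of the large subunit. Beside the counts by place stand 16.2% of all genes tested called higher and 23.5% called lower. In fits without 1 library the shares of all genes are those given above for the members. The gene listed as mrpl24 is given separately and is not counted among the exit tunnel proteins. Of 4 proteins around the peptidyl transferase centre, where peptide bonds form, Mrpl2 alone rose, and the median log2 fold change was 0.185. Without DMSO replicate 1, 2 of the 4 were called. In that group Mrpl3, whose defects cause respiratory chain deficiency, stood at 52.7 and 42.6 CPM in DMSO and 48.0 and 44.9 CPM in topotecan, with overlapping groups and a log2 fold change of -0.04 (SE 0.12). Of 8 exit tunnel proteins 4 rose (Mrpl23, Mrpl39, Mrpl44 and Mrpl45), with a median of 0.209. Mrpl44, which has the fold of an RNase III enzyme, went from 97.0 and 94.6 CPM to 118 and 117 CPM (log2 fold change 0.29, SE 0.08, adjusted p = 0.0139), and Mrpl45, which ties the ribosome to the inner membrane, from 205 and 202 CPM to 238 and 238 CPM (log2 fold change 0.23, SE 0.08, adjusted p = 0.0308). Both had tight replicates, yet both lost the call without topotecan replicate 1 (adjusted p = 0.125 and 0.187) and without topotecan replicate 2 (0.101 and 0.191), and 1 of the 8 tunnel genes was then called without replicate 1 and 2 without replicate 2.

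The stalk recruits translation factors to the large subunit. The gene listed as mrpl11, which forms its base, was tested and is given separately, so it is not among the 3 stalk genes counted here. Of 3 stalk genes Mrpl12, the stalk protein that also binds mitochondrial RNA polymerase, rose from 152 and 134 CPM to 178 and 162 CPM (log2 fold change 0.25, SE 0.09, adjusted p = 0.0423). This call was lost without DMSO replicate 2 (adjusted p = 0.122), without topotecan replicate 1 (0.334) and without topotecan replicate 2 (0.0662). Without DMSO replicate 1 all 3 stalk genes were called higher, with a median log2 fold change of 0.379 against 0.247 with every library. Among 7 proteins of the central protuberance, the knob that faces the tRNAs, Mrpl38, Mrpl46 and Mrpl55 rose, the other 4 did not pass, and the median was 0.158. Without topotecan replicate 1, 1 of these 7 was called, without topotecan replicate 2 none, and without DMSO replicate 2 the count was 2. Mrpl58, which frees peptides from stalled ribosomes, stood at 78.0 and 71.5 CPM in DMSO and 87.7 and 79.1 CPM in topotecan (log2 fold change 0.16, SE 0.10, adjusted p = 0.215).

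In the small subunit, where 44.4% of all members rose, 3 of 4 head proteins did so (Mrps7, Mrps10 and Mrps14). The median log2 fold change of the head proteins was 0.243, and Mrps9 did not pass. When DMSO replicate 2 or either topotecan library was left out, 1 of the 4 was called, and without DMSO replicate 1 all 4 were. Of 4 platform proteins Mrps11 and Mrps15 rose, with a median of 0.246, and 0 were called when either topotecan library was left out, 1 without DMSO replicate 2 and 3 without DMSO replicate 1. None of the 3 proteins at the decoding centre and the mRNA entry passed the edgeR test, and 0 did so at an unadjusted p under 0.05, with DESeq2 or with limma-voom. Their median was 0.114, and without DMSO replicate 2 it was -0.0154. They include Mrps12, which monitors the match of codon and anticodon. Mrps12 stood at 29.1 and 19.9 CPM in DMSO and 29.3 and 27.6 CPM in topotecan, with overlapping groups (log2 fold change 0.21, SE 0.15, adjusted p = 0.304). Without DMSO replicate 1 it was called higher, with a log2 fold change of 0.53 (adjusted p = 0.00117). Mrps2, Mrps16 and Mrps22, each known from inherited respiratory chain deficiencies, had log2 fold changes of 0.09, 0.10 and 0.09, none of which passed the test. Mrps16 stood at 79.5 and 73.5 CPM in DMSO and 80.8 and 83.4 CPM in topotecan, without overlap but close together. The lowest value of the small subunit was that of Mrps28, at 23.8 and 19.1 CPM in DMSO and 20.2 and 18.8 CPM in topotecan (log2 fold change -0.14, SE 0.14, adjusted p = 0.437).

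Rises were found among genes with and without a bacterial counterpart. Of all genes tested 16.2% were called higher and 23.5% lower. The conserved large subunit genes counted here do not include mrpl9, mrpl11 and mrpl24, which are given separately. In the large subunit 10 of 25 conserved genes rose and 0 fell (median 0.234). Of 19 genes listed as mitochondria-specific 9 rose, Mrps18a and Mrps30 among them, and 1 fell (median 0.226). In the small subunit 5 of 15 conserved genes rose (median 0.197) and 5 of 10 genes listed as specific rose (median 0.239). Mrps18a and Mrps18b were listed as specific and Mrps18c as conserved, although all are related to the same bacterial protein. Without topotecan replicates 1 and 2 in turn, 4 and 5 of the conserved large subunit genes were called, 5 and 4 of the specific ones, 1 and 1 of the conserved small subunit genes, and 2 and 4 of the specific ones. Without DMSO replicates 1 and 2 in turn these counts were 16 and 8, 12 and 8, 8 and 2, and 7 and 4. A difference between these classes was not tested.

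By symbol, 17 of 42 large subunit genes rose (40.5%), 1 fell and 24 did not pass, and 12 of 27 small subunit genes rose (44.4%), 0 fell and 15 did not pass. No small subunit gene was lower at an unadjusted p under 0.05, with DESeq2 or with limma-voom either. The median log2 fold change was 0.227 in the large and 0.218 in the small subunit, a difference of 0.0089 that was below the pooled SD between replicates of 0.0252. Summed over its members, the large subunit stood at 4058 and 3817 CPM in DMSO and 4528 and 4453 CPM in topotecan. These sums averaged 3938 ± 170 against 4490 ± 53.0 CPM (SD, n = 2 each), a ratio of 1.14. The small subunit stood at 2285 and 2130 CPM in DMSO and 2717 and 2638 CPM in topotecan, with averages of 2208 ± 110 and 2678 ± 55.9 CPM (SD, n = 2 each) and a ratio of 1.21. In both subunits the topotecan libraries lay above the DMSO libraries. All 69 genes together made up 0.64% and 0.605% of the DMSO libraries and 0.712% and 0.702% of the topotecan libraries.

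The ratio of the large to the small subunit sum was 1.78 and 1.79 in the DMSO libraries against 1.67 and 1.69 in topotecan, so the groups did not overlap. With Mrps30 and Mrps18a counted in the large subunit, where the structures place them, it was 2.3 and 2.29 in DMSO against 2.25 and 2.24 in topotecan, a smaller gap. Without Mrpl51, an alternative added after seeing the data, it was 1.66 in both DMSO libraries and 1.58 and 1.6 in topotecan. Sums of counts weigh abundant genes such as Mrpl51 and Mrps18a most, whereas the medians weigh genes equally. With 2 libraries against 2 an exact permutation test cannot give a two-sided p below 0.333, and the ratio was not tested.

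**Figure D3:**
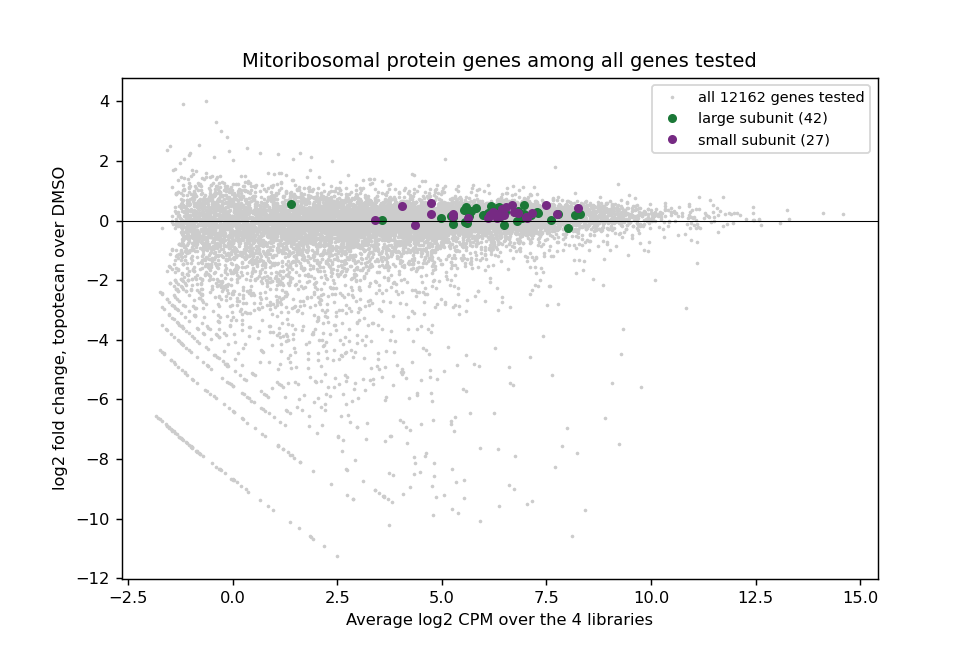
Log2 fold change of topotecan over DMSO against average log2 CPM over the 4 libraries for all 12162 genes tested (grey), with the large subunit in green and the small subunit in purple. The members span -0.26 to 0.60 and cluster just above 0, while other genes reach far larger values in both directions.

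The size of the rises depended on the scaling. TMM scaling, used above, assumes that most genes do not change, and scaling instead to 13 neuronal markers that span under 30 kb moved the median of all genes from -0.00963 to -0.162. The neuronal scale assumes that these markers do not change on average. Under TMM Uchl1, Stmn3, Nefm, Ina and Tubb3 among them were called higher (log2 fold changes 0.78, 0.42, 0.39, 0.38 and 0.35). Thy1 was called lower (-0.45), and the rest did not pass. On that scale 5 members were called higher and 1 lower, against 5.27% and 27.9% of all genes, and the median log2 fold change was 0.071 over all members, over the large subunit and over the small subunit. The 5 were Mrpl14, Mrpl23, Mrps10, Mrps30 and Mrps33, and the 1 lower was again Mrpl51 (log2 fold change -0.42, adjusted p = 0.00685). Mrps10 kept the largest value, 0.45 (adjusted p = 0.0189). All 29 members that rose under TMM had values above 0 under neuronal scaling, and 14 members went from above 0 to below 0. Mrpl14, Mrpl23, Mrps10, Mrps30 and Mrps33 were called higher in all 11 alternative fits across genes.

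**Figure D4:**
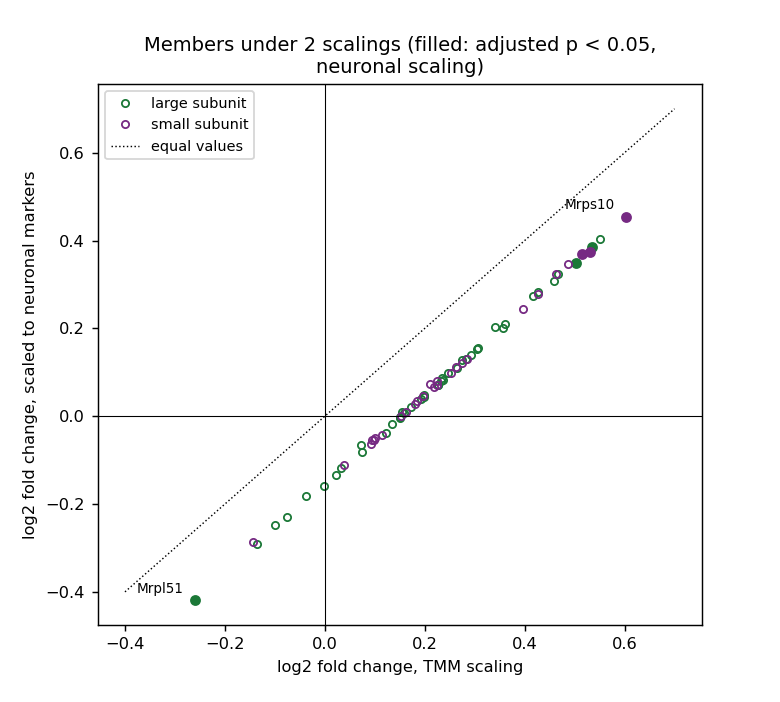
Log2 fold change of each member under TMM scaling (horizontal) and under scaling to neuronal markers (vertical), with the large subunit in green, the small in purple, and the dotted line marking equal values. All points lie below the line by a near constant step, and the filled points are the 5 genes called higher and Mrpl51, called lower, under neuronal scaling.

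Topotecan was given to lower long genes, and members are short. Their span from start to end in the RefSeq annotation had a median of 6.5 kb, 47 of 69 were under 10 kb, 64 were under 30 kb, and only Mrps28 exceeded 100 kb, at 131 kb. Among all 6427 genes tested under 30 kb, 22.6% were called higher and 17.8% lower, with a median log2 fold change of 0.104, and 28 of the 64 members under 30 kb (43.8%) rose, with a median of 0.225. Over the 69 members span and log2 fold change had a Spearman rho of -0.011, given as a description across genes of the same libraries.

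Reads of some members may be shared. RefSeq lists a pseudogene or a similarly named gene for 21 members, of which 9 rose (median 0.218), and a gene overlapping the span of 18, of which 4 rose (median 0.185). Of the 32 members with neither, 17 rose and 1 fell, with a median of 0.241. Beside these counts, 16.2% of all genes tested and 22.6% of those under 30 kb were called higher. A difference between these classes of members was not tested. Mrpl57, an additional protein of the large subunit, rose with a log2 fold change of 0.36 while the gene overlapping it, Ska3, fell by 1.21.

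The 3 genes in lower case are large subunit proteins. The gene listed as mrpl9 stood at 78.4 and 61.9 CPM in DMSO and 98.1 and 97.5 CPM in topotecan and rose (log2 fold change 0.48, SE 0.11, adjusted p = 0.0035). The gene listed as mrpl11, which forms the base of the stalk, stood at 62.8 and 62.1 CPM against 67.0 and 73.7 CPM (log2 fold change 0.17, adjusted p = 0.177), and mrpl24 at 87.2 and 91.5 CPM against 100.4 and 94.6 CPM (log2 fold change 0.13, adjusted p = 0.283). With them 30 of 72 genes rose and the median was 0.221. Mrps36 was not analysed here. Of 4 proteins of this ribosome with other symbols, Gadd45gip1, Dap3 and Ptcd3 rose, with log2 fold changes of 0.52, 0.33 and 0.29, and Chchd1 did not pass (0.10). Without topotecan replicate 1 only 1 of these 4 was called, and Dap3 (adjusted p = 0.0993) and Ptcd3 (0.0677) were lost. Ptcd3 was also lost without topotecan replicate 2 (0.0799).

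Genes that serve the ribosome were examined beside it. Of 17 assembly genes 6 rose (35.3%) and 1 fell (5.88%), beside 16.2% and 23.5% of all genes tested. Their median log2 fold change was 0.276. Mrm3, which methylates the large rRNA, went from 28.9 and 26.3 CPM to 44.6 and 46.0 CPM (log2 fold change 0.71, SE 0.11, adjusted p = 0.000158), and Ngrn, a factor needed for the large rRNA, from 196 and 185 CPM to 266 and 243 CPM (log2 fold change 0.42). Malsu1, whose protein binds that of Mrpl14, had 16.5 and 12.9 CPM in DMSO and 20.3 and 21.1 CPM in topotecan (log2 fold change 0.49, adjusted p = 0.0147), and lost the call without DMSO replicate 2 (0.0573) and without topotecan replicate 2 (0.0617). Rpusd4, an enzyme that modifies the large rRNA, rose by a log2 fold change of 0.37, with adjusted p of 0.0686 without topotecan replicate 1 and 0.122 without topotecan replicate 2. Gtpbp10, a GTPase of late large subunit assembly, fell by 0.61 on the log2 scale (adjusted p = 0.0188), and did not pass without DMSO replicate 2 (0.0706) or topotecan replicate 2 (0.188). Fewer assembly genes were called higher without either topotecan library, and more without DMSO replicate 1. The list median was 0.262 without topotecan replicate 1, 0.336 without topotecan replicate 2 and 0.35 without DMSO replicate 1. Under neuronal scaling 1 assembly gene was called higher and 1 lower, beside 5.27% and 27.9% of all genes tested.

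Of 14 translation factors 0 rose and 2 fell (14.3%) by the edgeR test, beside 16.2% of all genes tested called higher and 23.5% lower. Their median log2 fold change was 0.0244. At an unadjusted p under 0.05, 1 was higher, while DESeq2 and limma-voom called 0 higher. Without DMSO replicate 1, 1 was called higher and the median was -0.00641. Gfm2, which splits the ribosome after termination, went from 21.9 and 28.5 CPM to 15.7 and 14 CPM, a log2 fold change of -0.76 (SE 0.15, adjusted p = 0.00107). Gfm1, which moves the ribosome along the mRNA, went from 83.5 and 75.2 CPM to 59.0 and 64.0 CPM, a log2 fold change of -0.37 (SE 0.10, adjusted p = 0.00902), and did not pass without topotecan replicate 1 (0.139). Tufm, which brings in the charged tRNA, stood at 253 and 251 CPM in DMSO and 254 and 244 CPM in topotecan. Of 9 genes that transcribe or copy mitochondrial DNA, Polg2, the accessory subunit of the DNA polymerase, and Tfb2m, which starts transcription, rose (log2 fold changes 0.58 and 0.41), with a median of 0.164 over the 9. Twnk, listed under the symbol Peo1, was left out of the 9 and was also called higher (log2 fold change 0.41, adjusted p = 0.0052). Polg2 and Tfb2m were 22.2% of the 9, beside 16.2% of all genes tested. Neither was called without topotecan replicate 1 (adjusted p = 0.0812 and 0.126), and Tfb2m was not called without topotecan replicate 2 (0.0712).

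Of the 12 protein-coding mitochondrial genes tested, whose messages this ribosome translates, 0 rose and 3 fell (25.0%) by the edgeR test. Over all genes tested 16.2% were called higher and 23.5% lower, so the share that fell was near that of all genes. The median log2 fold change of the 12 was -0.131. At an unadjusted p under 0.05, 0 were higher and 4 lower, and DESeq2 and limma-voom called 0 higher. The 3 were Mt-nd3, Mt-nd4 and Mt-nd6, subunits of complex I, at -0.22, -0.25 and -0.25 (adjusted p = 0.0395, 0.0256 and 0.0245). Mt-nd4 stood at 2238 and 2478 CPM in DMSO and 2120 and 1838 CPM in topotecan. None of the 12 was called without topotecan replicate 2, when the median was -0.026. Called lower were 2 without topotecan replicate 1, 2 without DMSO replicate 2 and 5 without DMSO replicate 1. With DESeq2, RLE, no filter or the block 2 were called lower, since Mt-nd3 did not pass (adjusted p = 0.0769, 0.0518, 0.066 and 0.0552). Under neuronal scaling 5 were called lower, beside 27.9% of all genes tested. By comparison, 42 of 76 cytosolic ribosomal protein genes (55.3%) rose and 0 fell, with a median of 0.373. On the neuronal scale their median was 0.221 and 14 were called higher, beside 5.27% of all genes tested. None of the 76 was lower at an unadjusted p under 0.05, with DESeq2 or with limma-voom. Without topotecan replicate 1, 26 of the 76 were called, and without topotecan replicate 2, 28. Differences between these lists and the members were not tested.

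**Figure D5:**
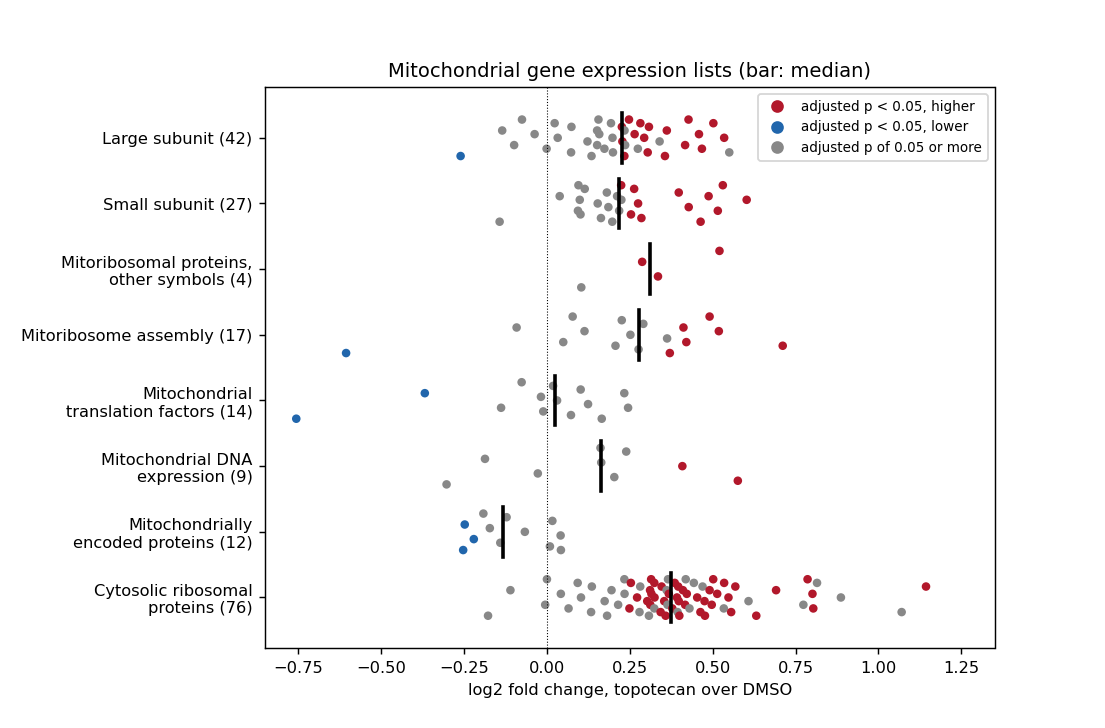
Log2 fold change of topotecan over DMSO for the genes of 8 lists tested under their listed symbols. Red marks genes that passed as higher, blue lower and grey the rest, with a black bar at each median. The medians of the large (0.227) and small subunit (0.218) lie between those of the mitochondrially encoded proteins (-0.131) and the cytosolic ribosomal proteins (0.373).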

How the data were processed

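The authors deposited whole-number counts per gene for all 4 libraries in 1 table. The submitters' processing notes name STAR and edgeR. Build, annotation, counter and strand use were not given in the sources used here. A small RNA kit was used per the labels' protocols, although the table counts protein-coding genes. Identifiers on several rows were used once. Depth was 27347410 and 22957786 counts in DMSO replicates 1 and 2, and 31181382 and 25459488 in topotecan. Replicates differed by more than sampling noise (chi-square per degree of freedom 13 and 9.34).

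The deposited counts were tested with edgeR 4.0.16 (R 4.3.3): quasi-likelihood F-test, treatment only, TMM, filterByExpr (minimum count 10, minimum total 15), Benjamini-Hochberg over 12162 genes, threshold 0.05, 2 residual degrees of freedom. CPM are TMM-scaled. Standard errors were obtained as log2 fold change over the root of F. The script was tested on simulated data. Alternatives were other scalings (RLE, library totals, neuronal markers), no filter, a block, limma-voom (limma 3.58.1), DESeq2 1.42.0, a count minimum of 100, other subunit assignments and leaving out each library.

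Members and lists were chosen with earlier results of these data known. Named were the 6 largest called rises and falls per subunit, a set of well-known members whatever their values, those nearest the minimum, and up to 3 genes with the smallest p per pathway list. Other genes, among them Mrpl34, Mrpl57 and the remaining list members, were named after their values were seen. Part of the rule, levels per coding length, was not applied because no coding lengths were used here, so levels are not compared between genes. Spans and promoters are from RefSeq GRCr8, the promoters matched by symbol. Spans were matched by Entrez number, or by symbol where that gave no match (Mrpl39 among the members). They are used without the authors' coordinates.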

Additional observations from a re-analysis of the deposited data

How the results depend on the processing

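Scaling to neuronal markers called 641 of all genes higher, 5 members, 2 of the large and 3 of the small subunit, and gave medians of 0.071 for all members and for each subunit. With library totals the large subunit median was 0.189. Leaving out each library in turn gave 1208 to 2470 genes called higher and 2336 to 2910 lower, 12 to 43 members higher and 0 to 1 lower, 7 to 26 large subunit genes higher and 0 to 1 lower, and 5 to 17 small subunit genes higher and 0 lower. The medians then ranged from 0.167 to 0.274 for members, 0.172 to 0.277 for the large and 0.155 to 0.266 for the small subunit, and the difference of medians from -0.00381 to 0.0301. The other settings (RLE, library totals, no filter, block, limma-voom, DESeq2) called 20 to 33 members higher and Mrpl51 lower. In these settings 13.6% to 16.9% of all genes tested were called higher and 18.8% to 24.9% lower. A fit with the replicate block called 26 members, 15 large and 11 small, and 1822 genes higher and 2746 lower in all. Deviations of same-numbered libraries correlated at r = -0.0377 over genes. With 2 libraries per group the crossed value is fixed as its opposite, so this value cannot settle whether the numbers pair the samples. A minimum of 100 counts kept all members.

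Some members changed sign, and for those that did so without a library the lowest and highest values are given. Under neuronal scaling Mrpl22 became -0.00107, Mrpl40 -0.118, Mrpl42 -0.0807, Mrpl43 -0.00376, Mrpl47 -0.0386, Mrpl48 -0.0168, Mrpl49 -0.133, Mrpl54 -0.0656, Mrps2 -0.0533, Mrps5 -0.0427, Mrps16 -0.0506, Mrps18b -0.0541, Mrps22 -0.0622 and Mrps24 -0.11. With library totals Mrpl40 was -0.00535 and Mrpl49 -0.0149. Mrpl33 was 0.0124 with RLE and DESeq2 and 0.0125 without the filter. Without DMSO replicate 1 Mrpl3 was 0.138, Mrpl40 0.0832, Mrpl52 0.0176, Mrpl54 0.379, Mrps2 0.216, Mrps12 0.526, Mrps24 0.111 and Mrps28 0.0376. Without DMSO replicate 2 Mrpl3 was -0.179, Mrpl33 0.0489, Mrpl40 -0.00241, Mrpl52 -0.193, Mrpl54 -0.163, Mrps28 -0.287, Mrps12 -0.0295, Mrps2 -0.00343 and Mrps24 -0.0154. Without topotecan replicate 1 Mrpl33 was 0.0533, Mrpl49 -0.0154 and Mrps24 -0.0182, and without topotecan replicate 2 Mrpl3 was 0.014, Mrpl33 -0.0475 and Mrpl49 0.0694. None of these members passed the test with all 4 libraries, but Mrps12 (adjusted p = 0.00117) and Mrpl54 (0.012) were called higher without DMSO replicate 1. The cause was not tested. Members had 46 or more counts in each library and standard errors of 0.0746 to 0.236, and the smallest rise that passed had a log2 fold change of 0.22.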
